A study of Mus musculus with 8 samples.

Results

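The carboxylesterase (Ces) genes of mouse chromosome 8 were described in livers of male mice on a high-fat diet (HFD). The 10 genes were chosen by name: *Ces1b*, *Ces1c*, *Ces1d*, *Ces1e*, *Ces1f*, *Ces1g*, *Ces2a*, *Ces2e*, *Ces3a* and *Ces3b*. All 10 were among the 18095 genes of the count table, and all 10 were among the 14866 genes that passed the expression filter. RNA-seq compared 4 mice labelled HFD WT with 4 mice labelled HFD Inpp4b-/-. INPP4B is a phosphatase of membrane phosphoinositides, and the study does not describe the deleted allele. Both genotypes were on HFD, were fed by dams on HFD, and were dissected at 12 weeks of age. The labels give a C57BL/6 background and the study names FVB. Each library is a whole liver sample, so fewer cells of a type and less RNA per cell cannot be told apart.

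Carboxylesterases are serine hydrolases that cut esters, amides and thioesters. In liver, they sit mainly in the lumen of the endoplasmic reticulum of hepatocytes, where they activate or inactivate ester drugs and hydrolyse stored neutral lipids. Mice carry many more copies than humans, arranged as tandem repeats. The Ces1 genes include *Ces1c*, which encodes the carboxylesterase of mouse plasma, *Ces1d*, a triacylglycerol hydrolase that supplies lipid for very low density lipoprotein (VLDL), and *Ces1e*, whose product egasyn holds beta-glucuronidase in the endoplasmic reticulum. *Ces1f* and *Ces1g* also encode neutral lipid hydrolases, and the Ces2 and Ces3 genes form a separate group on the same chromosome.

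In GRCm38, the 6 Ces1 genes of the set lie on the minus strand of chromosome 8 from 93056728 to 93337308. They span 281 kb that begin 10.9 Mb beyond the end of *Inpp4b*. The annotation also holds *Ces1a* and *Ces1h*, which were not in the count table and are left out of these positions. *Ces2a*, *Ces2e*, *Ces3a* and *Ces3b* lie on the plus strand from 104734003 to 105093929, over 360 kb that begin 22.6 Mb beyond *Inpp4b*. Among the 6 Ces1 genes of the set, *Ces1b* is the gene nearest *Inpp4b* (93056728 to 93080017), followed by *Ces1c* (93099015 to 93131283).

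*Ces1b*, the called gene of the set, and its neighbour *Ces1c* are close copies, and their sequences are therefore shown first. Their coding sequences were 91.2% identical over 1662 aligned bases. By the same measure, *Ces3a* and *Ces3b* were 95.3% identical, *Ces2a* and *Ces2e* 83.3%, and *Ces1d* and *Ces1g* 81.6%. The last codons of each coding sequence decide whether the enzyme carries the retrieval signal that returns proteins to the endoplasmic reticulum. The ends of *Ces1b*, *Ces1c*, *Ces1d* and *Ces3a* in the GENCODE M21 transcripts are given from 5′ to 3′, with the 4 codons before the stop in capitals.
Ces1b: cacAGAGAACACAAAtga
Ces1c: cacACAGAACACAAAtga
Ces1d: gaaCATGTTGAGCTCtga
Ces3a: gttCCAGAGGAGCTCtga
The codons of *Ces1d*, *Ces1e*, *Ces1f*, *Ces1g*, *Ces2a* and *Ces2e* spell the usual retrieval signal (histidine, any residue, glutamate, leucine). Those of *Ces1b*, *Ces1c*, *Ces3a* and *Ces3b* do not.

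The promoters of *Ces1b* and *Ces1c* are shown because *Ces1b* was called and *Ces1c* was not, while their upstream sequences are close copies. RefSeq promoters (GRCm38.p6, 250 bases before to 50 after a start site) were found for 7 of the 10 genes, all except *Ces1d*, *Ces1f* and *Ces3a*. The *Ces1b* window is chr8:93079968-93080267 and the *Ces1c* window is chr8:93131234-93131533, both on the minus strand, and each is printed 5′ to 3′. Capitals mark the letters TTATGTAA, the core of the D-box known from circadian liver promoters, and CCAAT, the CCAAT box, on either strand.
Ces1b: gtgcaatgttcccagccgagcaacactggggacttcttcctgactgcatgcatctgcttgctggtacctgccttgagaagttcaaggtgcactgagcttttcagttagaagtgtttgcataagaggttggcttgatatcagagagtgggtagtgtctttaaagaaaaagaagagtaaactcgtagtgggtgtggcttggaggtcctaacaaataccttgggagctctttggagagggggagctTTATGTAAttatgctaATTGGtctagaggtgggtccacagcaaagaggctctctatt
Ces1c: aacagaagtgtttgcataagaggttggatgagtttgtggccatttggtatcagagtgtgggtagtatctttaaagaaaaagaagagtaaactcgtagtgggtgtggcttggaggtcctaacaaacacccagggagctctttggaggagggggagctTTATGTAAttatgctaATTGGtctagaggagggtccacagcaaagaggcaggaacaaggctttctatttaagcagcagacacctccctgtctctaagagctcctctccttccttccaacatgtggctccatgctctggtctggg
The windows were 93.9% identical over 197 aligned bases. Against the *Ces1b* window, the other windows were between 54.7% (*Ces3b*) and 62.0% (*Ces1g*) identical. RefSeq holds 2 start sites for *Ces1b*, and the one that matches GENCODE M21 was used. The window at the other start was 92.7% identical to *Ces1c* over 273 aligned bases. The first base of TTATGTAA lies at position -7 from the *Ces1b* start site used and at position -94 from the *Ces1c* start site. The other *Ces1b* start (window chr8:93079891-93080190) lies downstream of the one used, so the same letters lie further upstream of it. The position in *Ces1b* thus depends on the start chosen.

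TTATGTAA was found in the 4 Ces1 promoters of the set that RefSeq gave, *Ces1b*, *Ces1c*, *Ces1e* and *Ces1g*, and in none of *Ces2a*, *Ces2e* and *Ces3b*. Of all 32851 promoters of this length, 0.938% hold it on either strand. CCAAT was in *Ces1b*, *Ces1c*, *Ces1g*, *Ces2a* and *Ces3b*, against 37.4% of all promoters. The nuclear receptor half-site AGGTCA was only in *Ces2a* among these 7 (16.3% of all promoters). TATAAA, the letters of the TATA box, was only in *Ces1g* and *Ces3b* (13.6%), and in *Ces1g* only on the strand opposite to the gene. All these motifs were sought on either strand. The motifs were chosen after the sequences had been seen, and a match describes the letters and not binding.

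The depth was 25893430 to 31427831 counts in the libraries labelled HFD WT and 32738435 to 36662531 in those labelled HFD Inpp4b-/-. *Inpp4b* itself had 6, 20, 5 and 8 counts in the HFD WT libraries and 33, 10, 9 and 14 counts in the HFD Inpp4b-/- libraries, so its counts were not lower in the libraries labelled as knockouts (two-sided exact permutation test, p = 0.486, n = 4 per genotype, smallest possible p 0.0286). Genotype names below therefore stand for libraries labelled so, and each direction rests on those labels. The 9 hepatocyte markers tested summed to between 76523 and 86056 CPM (a count divided by the normalized library total and scaled by 1e+06) in HFD WT, and to between 79270 and 98656 CPM in HFD Inpp4b-/-. Of these 9 markers, 3 were above 0 on the log2 fold change scale and 6 were not, with a median of -0.05. None was called by edgeR or DESeq2. At an unadjusted edgeR p under 0.05 there were 2, in opposite directions, against 13.9% of all tested genes. The 5 adipocyte markers were not in the table. Kupffer cell markers summed to 43.1 to 120 CPM in HFD WT and 83.7 to 162 CPM in HFD Inpp4b-/-, ranges that overlap. All 6 were above 0 on the log2 fold change scale, against 50.4% of all tested genes. Of these 6 markers, 0 were called by edgeR or DESeq2 and 0 had an unadjusted edgeR p under 0.05. Their part in the results was not tested.

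The 10 genes took 0.594% to 0.768% of all counts in a library. They summed to 5905 to 7598 CPM (scaled by edgeR's TMM factors) in HFD WT and to 7121 to 7664 CPM in HFD Inpp4b-/-, ranges that overlap. To compare genes with each other, CPM was divided by the kilobases of exon. On that scale *Ces3a* and *Ces1c* were the most abundant in both genotypes. In HFD WT, *Ces3a* had a level of 924 CPM per kb (range over the 4 libraries 744 to 1067) and *Ces1c* 764 (684 to 876), and these 2 ranges overlap. *Ces3b* (237), *Ces1d* (224), *Ces2a* (168), *Ces1f* (127), *Ces1b* (119) and *Ces1e* (97.5) followed, each overlapping the next in range. *Ces2e* (60.6) lay below the range of *Ces1e*, and *Ces1g* (40.2) overlapped *Ces2e*. In CPM not divided by length, *Ces2e* (148 to 199) and *Ces1e* (164 to 308) overlapped.

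In HFD Inpp4b-/-, *Ces1c* (967 CPM per kb) lay above *Ces3a* (865) with no overlap. This separation depends on the exon lengths. In CPM not divided by length, *Ces1c* (2198 to 2317) and *Ces3a* (2082 to 2431) overlapped. *Ces3b* (314) and *Ces1d* (248) came next. *Ces1f* (153), *Ces1e* (115), *Ces2a* (102) and *Ces2e* (79.0) each overlapped the next, and *Ces1g* (51.8) lay below *Ces2e*. *Ces1b* was lowest at 37.0 CPM per kb, below the range of *Ces1g*, whereas it ranked seventh in HFD WT. As a share of the summed level per kb of the 10 genes, *Ces1b* had 3.84% to 5.17% in HFD WT, against 1.13% to 1.49% in HFD Inpp4b-/-. *Ces1c* had 25.5% to 28.8% in HFD WT, against 31.3% to 34.1% in HFD Inpp4b-/-. *Ces3a* had 29.7% to 37.1% in HFD WT, against 27.8% to 31.6% in HFD Inpp4b-/-, so its shares overlapped.

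**Figure D1:**
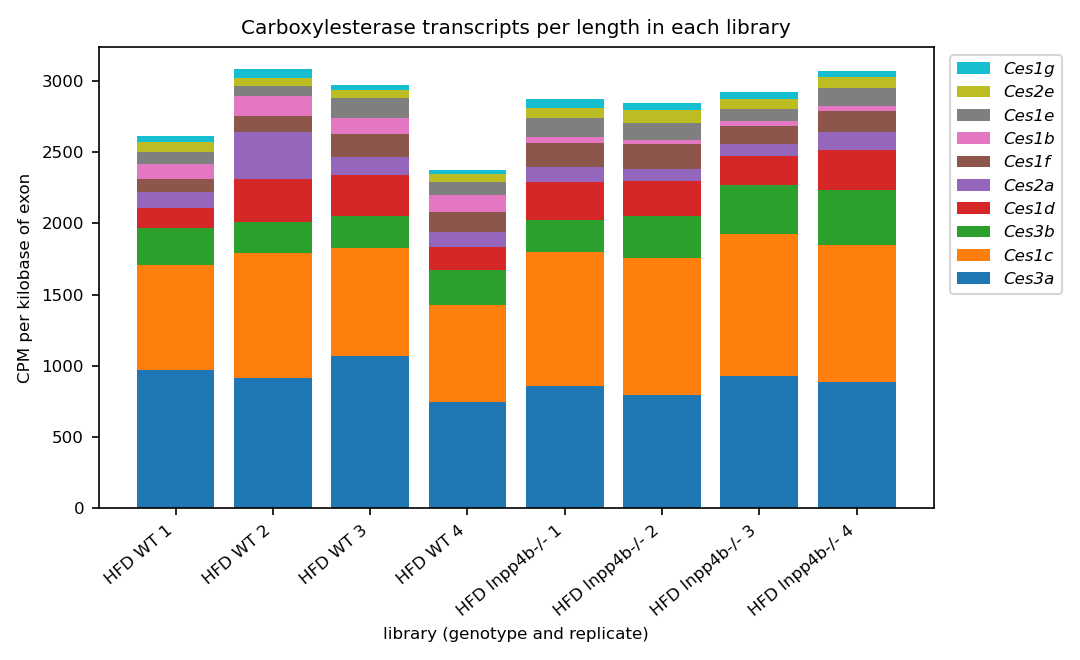
Level of each gene in CPM per kilobase of exon, stacked by library, with 4 libraries of each genotype on the x axis. *Ces3a* (blue) and *Ces1c* (orange) form the largest blocks in all 8 libraries, and the pink *Ces1b* block is thinner in the 4 libraries labelled HFD Inpp4b-/-.

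Calls required a fold change over 1.3 together with an adjusted p under 0.10 (edgeR's quasi-likelihood test, Benjamini-Hochberg adjustment over all tested genes). One of the 10 genes was called, *Ces1b*, which was lower in HFD Inpp4b-/-. Of all tested genes, 1.17% were called in either direction and 0.619% were called lower. At an unadjusted p under 0.05 there were 4 of the 10 (*Ces1b*, *Ces1c*, *Ces2e* and *Ces3b*), against 13.9% of all tested genes. Log2 fold changes were above 0 for 7 of the 10, against 50.4% of all tested genes, with a median of 0.26 over the 10 genes and of 0.0027 over all tested genes. With DESeq2, *Ces1b* was again the gene called among the 10, where 4.04% of all genes were called.

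*Ces1b* fell 3.22-fold. Its CPM was 201, 268, 224 and 241 in replicates 1 to 4 of HFD WT (mean 234 ± 28.3, SD, n = 4). In replicates 1 to 4 of HFD Inpp4b-/- it was 84.4, 65.3, 72.5 and 68.3 (mean 72.6 ± 8.40). Every HFD WT library was above every HFD Inpp4b-/- library, and 8.72% of all tested genes had no overlap between the groups (4.09% lower and 4.63% higher in HFD Inpp4b-/-). The log2 fold change was -1.69 (SE 0.12, edgeR adjusted p = 0.000715), the lowest p of all 14866 tested genes. The counts behind these values ranged from 2252 to 8521 per library, and leaving out any 1 library left the log2 fold change between -1.77 and -1.62 with the gene called each time.

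*Ces1c* was not called. Its CPM was 1714, 2035, 1764 and 1589 in HFD WT (mean 1776 ± 188) and 2198, 2234, 2317 and 2232 in HFD Inpp4b-/- (mean 2245 ± 50.5). The groups did not overlap, as for *Ces1b*. The log2 fold change of 0.34 (SE 0.10), a 1.26-fold difference, was under the fold threshold of 1.3 and had an edgeR adjusted p of 0.194. The log2 fold change stayed between 0.29 and 0.40 in all alternatives, with adjusted p from 0.0324 to 0.434. *Ces1c* was called in 1 alternative, without HFD WT replicate 2 (edgeR adjusted p = 0.0997). With DESeq2 its adjusted p of 0.0324 passed the limit of 0.10, and the fold threshold alone kept it from being called (log2 fold change 0.33). The CPM of *Ces1c* was 6.60 to 8.52 times that of *Ces1b* in HFD WT libraries and 26.0 to 34.2 times in HFD Inpp4b-/- libraries. This ratio restates the values of the 2 genes, and no test was made of it.

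Reads from such similar copies could be credited to the wrong gene, so the overlap of their transcripts was counted. No window of 150 bases, the length of 1 read of a pair, was shared between *Ces1b* or *Ces1c* and another gene, and the longest identical run between them was 118 bases. At 50 bases, 11.6% of the windows of *Ces1b* and 17.0% of those of *Ces1c* were shared. *Ces3a* and *Ces3b* shared 2.37% and 2.0% of their 150-base windows with each other, and *Ces2a* shared 4.03% with the gene *Gm7208*. How the authors counted reads that map to several places is not given in the sources used here, so the counts of these genes carry that uncertainty.

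**Figure D2:**
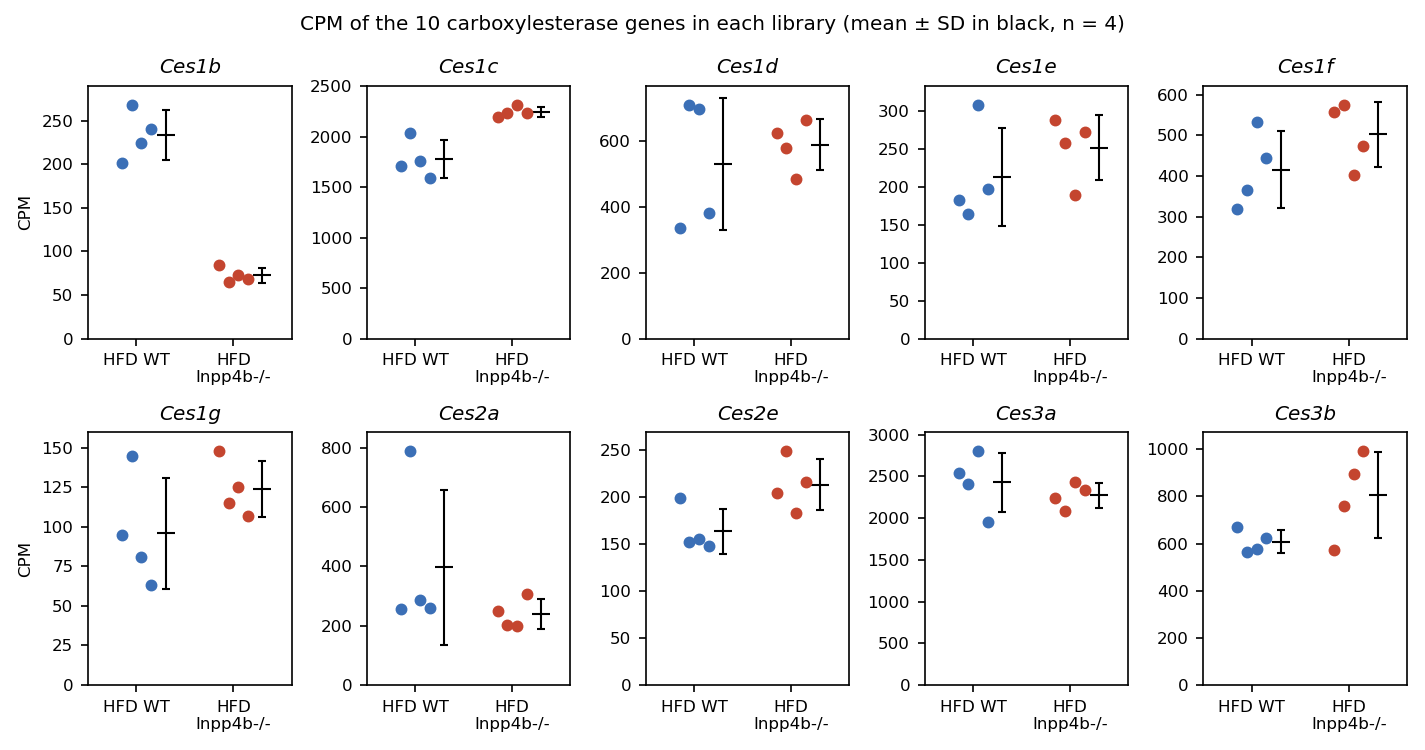
CPM of each of the 10 genes on the y axis, from 0, with 1 point per library (4 HFD WT in blue, 4 HFD Inpp4b-/- in red) and the mean ± SD in black. *Ces1b* is separated downwards, from 201 to 268 CPM to 65.3 to 84.4 CPM, *Ces1c* is separated upwards, and the other 8 genes overlap between genotypes.

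None of the remaining 4 Ces1 genes of the set passed the test, and the genotypes overlapped for each. *Ces1d*, the VLDL-linked hydrolase, had 335, 710, 696 and 382 CPM in HFD WT and 625, 580, 486 and 663 CPM in HFD Inpp4b-/-. The HFD WT libraries thus spread on both sides of the HFD Inpp4b-/- libraries, and the log2 fold change was 0.15 (SE 0.24, adjusted p = 0.828, edgeR). It was -0.018 without HFD WT replicate 1. *Ces1e* (egasyn) ranged from 164 to 308 CPM in HFD WT and from 189 to 288 in HFD Inpp4b-/- (log2 fold change 0.24, SE 0.20). *Ces1f* ranged from 318 to 533 CPM in HFD WT and from 403 to 576 in HFD Inpp4b-/- (0.27, SE 0.17). *Ces1g* ranged from 63.3 to 145 CPM in HFD WT and from 107 to 148 in HFD Inpp4b-/- (0.37, SE 0.22). All 4 of these values were above 0, as was that of *Ces1c*.

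*Ces2a*, which encodes a hydrolase of acylglycerols and of ester drugs, had 255, 788, 285 and 261 CPM in HFD WT and 250, 202, 199 and 308 CPM in HFD Inpp4b-/-. The HFD WT replicate 2 stood apart from the other 7 libraries. The log2 fold change was -0.73 (SE 0.36, adjusted p = 0.398, edgeR) with that library and -0.17 (adjusted p = 0.651) without it. *Ces2e* had 199, 152, 155 and 148 CPM in HFD WT and 205, 249, 183 and 216 in HFD Inpp4b-/-. Its highest HFD WT library lay among the HFD Inpp4b-/- libraries, and its log2 fold change of 0.38 (SE 0.13) had an adjusted p of 0.226.

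Neither *Ces3a* nor *Ces3b*, the closest pair in coding sequence, was called. *Ces3a* had 2546, 2407, 2802 and 1955 CPM in HFD WT and 2246, 2082, 2431 and 2331 in HFD Inpp4b-/- (log2 fold change -0.09, SE 0.12, adjusted p = 0.775, edgeR). *Ces3b* had 671, 562, 575 and 622 CPM in HFD WT and 573, 760, 894 and 992 in HFD Inpp4b-/-. Of its libraries, 3 HFD Inpp4b-/- libraries were above every HFD WT library and 1 was among the HFD WT values (log2 fold change 0.41, SE 0.16, adjusted p = 0.296). The ratio of *Ces3a* to *Ces3b* CPM was 3.14 to 4.87 in HFD WT, against 2.35 to 3.92 in HFD Inpp4b-/-, and these ranges overlapped.

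**Figure D3:**
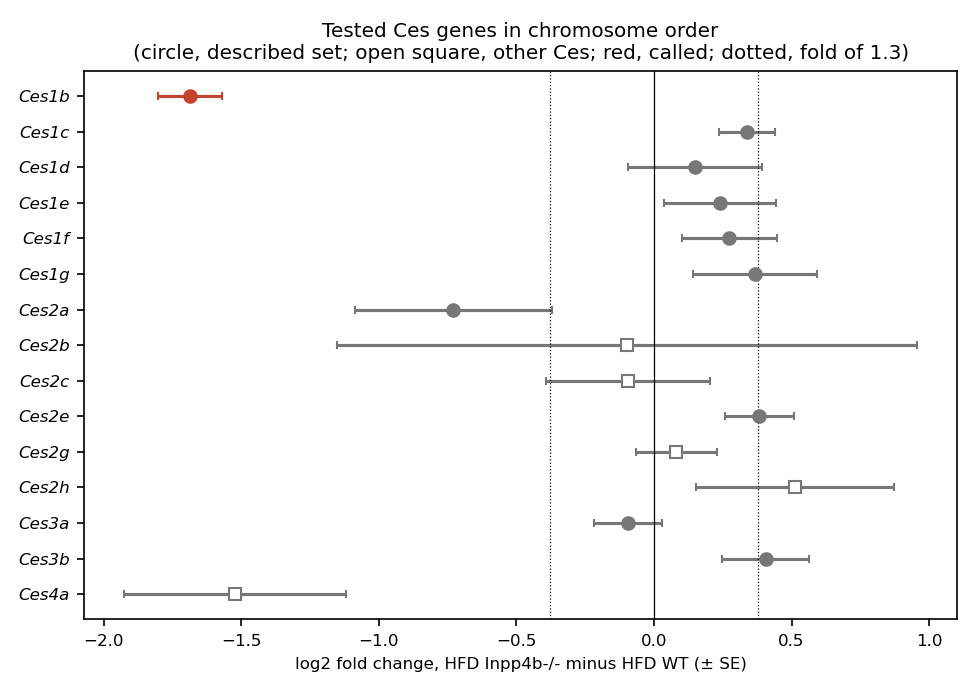
Log2 fold change (HFD Inpp4b-/- minus HFD WT, x axis, ± SE) of the 15 tested Ces genes in chromosome order on the y axis, with filled circles for the 10 genes described and open squares for other Ces genes. *Ces1b*, at -1.69, is the called gene, *Ces4a* lies at -1.52 without passing the test, and the dotted lines mark a fold of 1.3.

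The other Ces genes were scarce. Of 10 further Ces genes in the annotation, 6 were in the table and 5 were tested. Of those tested, 0 were called by edgeR, 1 had an unadjusted p under 0.05 and 1 was called by DESeq2. The shares over all genes were 1.17%, 13.9% and 4.04%. *Ces4a*, which lies just beyond *Ces3b*, had 10.3, 6.90, 16.0 and 23.5 CPM in HFD WT and 2.36, 6.91, 5.31 and 5.14 in HFD Inpp4b-/-. Its log2 fold change of -1.52 (SE 0.40) had an edgeR adjusted p of 0.154, but it was called by DESeq2 (adjusted p = 0.00568) and by edgeR without HFD WT replicate 2 (log2 fold change -1.76, adjusted p = 0.0722), in a range of 0.00568 to 0.344 over all alternatives. *Ces2c* had 7.0 to 14.1 CPM in HFD WT, *Ces2g* 38.5 to 65.0 and *Ces2h* 0.691 to 1.23, with log2 fold changes of -0.10, 0.08 and 0.51. *Ces2b* had 5.24 CPM in HFD WT replicate 1 and no more than 0.378 in any other library of that genotype, and 0.129 to 2.55 CPM in HFD Inpp4b-/-. *Ces2d-ps*, a pseudogene below the filter, had 2 to 8 counts in HFD WT, against 2 to 23 in HFD Inpp4b-/- (two-sided exact permutation test, p = 0.857).

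The genes also varied between mice of one genotype. Deviations from the genotype mean of log2 CPM were compared for the 45 pairs of genes over the 8 libraries, which share each library's depth and RNA. *Ces1c* and *Ces1g* had the highest Pearson's r, 0.85, followed by *Ces1e* and *Ces1f* at 0.84 and *Ces1c* and *Ces2a* at 0.80. *Ces1b* and *Ces2e* had the lowest, -0.69. *Ces1b* and *Ces1c* had an r of 0.35. These are descriptions of 8 libraries, and the high values with *Ces2a* include the library that stood apart, HFD WT replicate 2. That library was also the highest HFD WT library for both *Ces1c* and *Ces1g*.

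**Figure D4:**
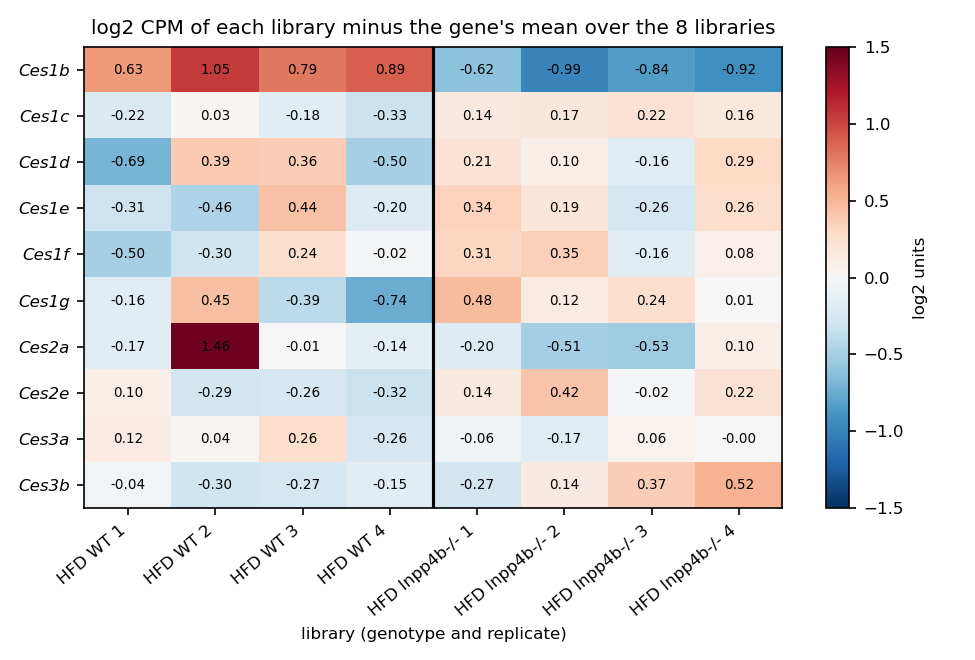
Log2 CPM of each gene (rows) in each library (columns) minus its mean over the 8 libraries, in log2 units, with red for above and blue for below that mean. *Ces1b* lies between 0.63 and 1.05 in HFD WT and between -0.99 and -0.62 in HFD Inpp4b-/-, and *Ces2a* reaches 1.46 in HFD WT replicate 2.

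Chromosome 8 carries *Inpp4b*, and 4.71% of its 828 tested genes were called, against 0.962% on the other chromosomes. Whether a position on this chromosome has a part in the call of *Ces1b* was not tested. Among 6 tested genes that are not Ces genes in or within 500 kb of the Ces1 group, 2 were called. *Gm45910*, a pseudogene between *Ces1c* and *Ces1d* (chromosome 8, 93141331 to 93154116), had 30, 59, 56 and 39 counts in HFD WT and 0 in each HFD Inpp4b-/- library. It was at least 18.5-fold lower in HFD Inpp4b-/- when 3 counts per library are taken as the limit of a count of 0 (edgeR adjusted p = 0.00787). Its transcript of 1003 bases was 89.8% identical to *Ces1c* and 86.4% to *Ces1b*. *Lpcat2*, which encodes a lysophosphatidylcholine acyltransferase, had 0.230 to 0.409 CPM in HFD WT, against 0.702 to 1.37 in HFD Inpp4b-/- (log2 fold change 1.73, SE 0.37, adjusted p = 0.0871), a call lost in 10 of 15 alternatives. Around the Ces2 and Ces3 genes, edgeR called 0 of 32 tested genes that are not Ces genes. Of these 32, 3 had an unadjusted p under 0.05 and DESeq2 called 1. Over all genes, 13.9% had such a p and DESeq2 called 4.04%.

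**Figure D5:**
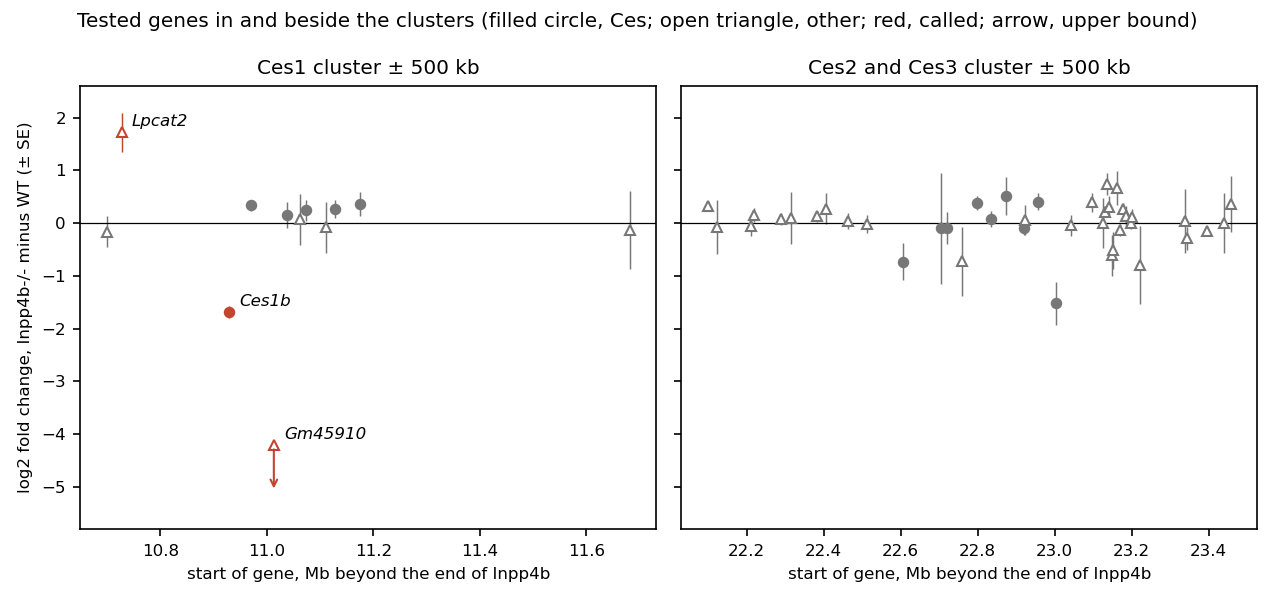
Log2 fold change (HFD Inpp4b-/- minus HFD WT, y axis, ± SE) of the tested genes in and within 500 kb of each group, against the distance of their start from the end of *Inpp4b* in Mb (x axis). Filled circles are Ces genes, open triangles other genes, red marks called genes (*Lpcat2*, *Ces1b* and *Gm45910*), and the arrow starts at the bound for *Gm45910*, at least 18.5-fold lower.

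By Pearson correlation of log2 CPM over the 8 libraries, the tested genes outside the Ces family most like *Ces1b* were *Gm45910* (r = 0.99), *Lsr* (0.98) and *Ccdc30* (0.98). These r values include the difference between genotypes. *Lsr*, which encodes the lipolysis-stimulated lipoprotein receptor, lies on chromosome 7 and had 65.2 to 75.8 CPM in HFD WT, against 39.1 to 43.8 in HFD Inpp4b-/- (log2 fold change -0.71, SE 0.084, edgeR adjusted p = 0.00818). *Ccdc30* on chromosome 4 had 57, 108, 70 and 91 counts in HFD WT and 0, 1, 3 and 1 in HFD Inpp4b-/- (edgeR adjusted p = 0.00195).

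Other enzymes with related activities were counted from gene lists. Of 21 tested ester and lipid hydrolases outside the Ces family, 1 was called higher (0.552% of all tested genes were) and 0 lower, with a median log2 fold change of 0.01. At an unadjusted p under 0.05 there were 5 of the 21, *Mgll*, *Lipa*, *Abhd5*, *Abhd6* and *Esd*, against 13.9% of all tested genes. DESeq2 called 1 (*Mgll*), where 4.04% of all genes were called. *Mgll*, monoacylglycerol lipase, rose from 230 to 269 CPM in HFD WT to 296 to 372 CPM in HFD Inpp4b-/- (log2 fold change 0.43, SE 0.094, adjusted p = 0.0942, edgeR). The genotypes did not overlap for *Mgll*, as for 8.72% of all tested genes. Its call was lost in 12 of 16 alternatives. *Pnpla2*, which encodes adipose triglyceride lipase, had a log2 fold change of 0.06 (SE 0.14), and *Aadac*, arylacetamide deacetylase, of 0.01 (SE 0.086). Of 12 tested genes of VLDL assembly, the process that *Ces1d* serves, 0 were called by edgeR or DESeq2 and 0 had an unadjusted p under 0.05. Their median log2 fold change was 0.04, and *Mttp*, the microsomal triglyceride transfer protein, was at -0.10 (SE 0.095). Of 14 tested regulators of drug and lipid enzyme genes, edgeR called 0, 2 had an unadjusted p under 0.05 (*Pparg* and *Nr0b2*) and DESeq2 called 1 (*Pparg*). The same shares over all genes, 13.9% at that p and 4.04% called by DESeq2, apply here. The edgeR log2 fold change was 1.73 (SE 0.65, adjusted p = 0.279) for *Pparg* and 0.79 (SE 0.36, adjusted p = 0.358) for *Nr0b2*.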

How the data were processed

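The authors aligned 150-bp paired-end reads of rRNA-depleted liver RNA to GRCm38 with HISAT2 and counted reads per gene with HTSeq, and deposited raw counts of genes with at least 1 count in every library of one genotype. Versions, strand setting and annotation release are not given in the sources used here. The deposited normalized values were not used. Labels gave genotype, replicate and age, and the series design gave the diet. All 18095 IDs matched GENCODE M21.

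The fit used edgeR 4.0.16 (TMM, filterByExpr, glmQLFit, glmQLFTest, no covariate) over 14866 genes. The SE is the absolute log2 fold change divided by the square root of F. The thresholds are those of the study, which used DESeq2 on HISAT2 and on STAR counts and kept genes that passed with both. Only the HISAT2 counts were used here. Genes below the filter had an exact permutation test over 70 arrangements, with 0.1 CPM added before log2. The procedure was tested on simulated data. Alternatives were DESeq2 1.42.0, other normalizations, filters and thresholds, leaving out each library, and a replicate block. Coding sequences and promoters were aligned with Biopython 1.88. R 4.3.3 and matplotlib 3.10.9 were used.

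The members, lists and tests were chosen with earlier results of these data known. The genes named are the 10 members, the other Ces genes in the table, *Inpp4b*, called genes of the lists or within 500 kb of the groups, and the 3 genes most like each called member. *Ces1a* and *Ces1h* are named only as absent from the table. *Pnpla2*, *Aadac*, *Mttp*, *Lipa*, *Abhd5*, *Abhd6*, *Esd*, *Pparg*, *Nr0b2* and *Hba-a1* were added after their values were seen. Depth ranged from 25893430 to 36662531 counts. The limit of 3 counts covers counting error only. The labels do not say whether replicates differ in litter or cage.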

Additional observations from a re-analysis of the deposited data

Results flagged for a closer look

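In all, 3 values stood apart from the other libraries of their genotype by Dixon's test (critical value 0.829 for 4 samples), among 36 groups examined, where chance gives about 1 in 20 (1.8 expected). *Ces2a* had 788.4 CPM in HFD WT replicate 2, against 285.0 CPM in the nearest HFD WT library. *Ces2e* had 199.0 CPM in HFD WT replicate 1, against 155.2 in the nearest. *Ces2b* had 5.24 CPM in HFD WT replicate 1, against 0.378 in the nearest.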

How the results depend on the processing

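*Ces1b* was called in all 16 alternatives (log2 fold change -1.77 to -1.62, adjusted p at most 0.0352). The number of the 10 genes called was 1 to 2, with 2 without HFD WT replicate 2 (*Ces1b* and *Ces1c*). All tested genes called were 174 by the settings used and ranged from 53 (without HFD Inpp4b-/- replicate 2) to 345 (without HFD WT replicate 2) when 1 library was left out. The number was 688 with DESeq2 and 71 at an adjusted p under 0.05. Upper quartile scaling gave 92 higher and 78 lower, against 82 and 92 with TMM. Genes called in the other lists numbered 6 with DESeq2, 1 with DESeq2 size factors, with no filter and with at least 10 counts in every library, 0 at an adjusted p under 0.05, and 0 to 4 when 1 library was left out. Called genes near the threshold lost the call: *Mgll* in 12 of 16 alternatives, *Lpcat2* in 10 of 15 and *Hba-a2* in 8 of 15.

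No sign of pairing by replicate number was seen: deviations of same-numbered libraries correlated at -0.170 to -0.0104, against -0.0339 to 0.139 for other numbers. So few values cannot decide whether a pairing exists. With the replicate block, 26 genes were called, 25 of them among the 174, 1 of the 10 genes (*Ces1b*), and 0 in the other lists. *Gm45910* (adjusted p = 0.199) and *Lsr* (0.125) were then not called.

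Log2 values of 6 genes changed sign, and none of the 6 was called in any alternative. Leaving out 1 library gave -0.018 to 0.31 for *Ces1d*, -0.53 to 2.22 for *Ces2b* (also 0.28 and 0.029 without HFD Inpp4b-/- replicates 3 and 4, and 0.61 with the replicate block), -0.39 to 0.073 for *Ces2c* (also 0.014 and 0.048), -0.32 to 0.56 for *Ces2d-ps*, -0.016 to 0.24 for *Ces2g* and -0.056 to 0.77 for *Inpp4b*. Ranking by coding length in place of exon length, made for HFD WT only, kept 8 of the 10 ranks, and *Ces1f* and *Ces2a* exchanged places. The cause was not tested. Depth limits *Ces2b*, *Ces2d-ps*, *Lpcat2* and *Inpp4b*, which rest on few counts.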

Other observations

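Markers of red blood cells held 1 called gene. *Hba-a2*, an alpha-globin gene with a close copy, so that its count is uncertain, had 0.806 to 5.09 CPM in HFD WT and 0.237 to 0.583 CPM in HFD Inpp4b-/- (log2 fold change -2.92, SE 0.54, edgeR adjusted p = 0.057), and lost its call in 8 of 15 alternatives. *Hba-a1*, the more abundant alpha-globin gene of the list, went the other way without a call. It had 38.2 to 207 CPM in HFD WT and 132 to 225 CPM in HFD Inpp4b-/- (log2 fold change 0.85, SE 0.46, edgeR adjusted p = 0.443). The 5 red blood cell markers summed to 114 to 431 CPM in HFD WT and 208 to 346 CPM in HFD Inpp4b-/-. Stellate, endothelial and cholangiocyte markers summed to 159 to 218, 96.3 to 122 and 23.7 to 31.6 CPM in HFD WT and to 166 to 227, 81.9 to 126 and 29.7 to 40.6 CPM in HFD Inpp4b-/-. None of these 3 lists held a gene called by edgeR. DESeq2 called *Lrat* and *Spp1*, where 4.04% of all genes were called. An unadjusted p under 0.05 was found for 3 of 6 stellate, 0 of 5 endothelial and 2 of 5 cholangiocyte markers, against 13.9% of all tested genes. Of 5 pancreas markers 1 was tested, and it and the 5 sex-marker genes were not called by edgeR or DESeq2, with 0 at an unadjusted p under 0.05.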
